A study of Mus musculus with 13 samples.

Results

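The mast cell genes described here are Kit, Cpa3, Cma1, Mcpt4, Tpsb2, Tpsab1, Fcer1a, Ms4a2, Hdc and Gata2, read by every probe set whose only gene symbol in the array's annotation is 1 of these 10 names. This gave 14 probe sets out of 45141 on the array, or out of 45037 without the 104 array controls. Kit, Cpa3, Cma1, Mcpt4, Tpsab1 and Fcer1a had 1 probe set each, and Tpsb2, Ms4a2, Hdc and Gata2 had a pair each, called (a) for the one of higher mean and (b) for the other. The arrays measured total RNA of squamous tumours raised on mouse back skin with DMBA, a carcinogen, and TPA, a tumour promoter. The tumours came from G9a cKO mice (conditional knockout, n = 7) and G9a WT mice (n = 6), and the design allows the comparison of cKO with WT. G9a, the product of Ehmt2, is an enzyme that methylates histone H3 at lysine 9, which goes with gene silencing. The title of the series speaks of more open chromatin, genomic instability and aggressive tumours after G9a loss.

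Both groups had the same treatment. At 8 weeks of age the mice received weekly skin applications of 200 µl over 6 weeks, in acetone, of DMBA (0.25 mg/ml) or of TPA (0.02 mg/ml), and TPA went on for at most 20 weeks. The strain, the sex, the promoter that drives the recombinase in the cKO mice and the cell type in which G9a is removed do not appear in the sources used here. The labels do not say that each tumour came from its own mouse, so p-values concern the spread between these samples only.

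Mast cells are long-lived tissue leukocytes that lie in the dermis around vessels, nerves and hair follicles and store ready-made mediators in granules. Stem cell factor, the product of Kitl, keeps them alive through the receptor tyrosine kinase Kit, and antigen that links IgE on the receptor FcεRI makes them release histamine, proteases and lipid mediators. In chemically treated mouse skin they are known to gather in the stroma around papillomas and carcinomas. Of the 10 genes, Cpa3, Cma1, Mcpt4, Tpsb2 and Tpsab1 encode granule proteases, Fcer1a and Ms4a2 encode the α and β chains of FcεRI, Hdc encodes the enzyme that makes histamine, and Gata2 encodes a transcription factor of the lineage. Not all are private to mast cells. Melanocytes also use Kit, basophils share Cpa3, Fcer1a, Ms4a2 and Hdc, other myeloid cells can make Hdc, and endothelium and early blood progenitors use Gata2. In whole tumours, fewer cells of a type and less RNA per cell cannot be told apart.

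The label of the cKO arrays was checked first on Ehmt2. Its probe set 1460692_PM_at read 5.87 to 6.12 on the cKO arrays and 8.03 to 8.61 on the WT arrays (log2 level), a difference of -2.33 with no overlap (limma adjusted p = 1.3e-09). The other, 1426888_PM_at, read 7.42 ± 0.04 in cKO and 7.29 ± 0.19 in WT tumours (SD, n = 7 and 6), with a limma adjusted p of 0.163. The sources used here do not place either of them inside or outside the deleted stretch. Levels below are deposited log2 values after RMA, and levels of different probe sets cannot be set against each other. As a guide to background, each array's line was put at the upper quartile of its 23 nonspecific control probe sets, which lay at 4.17 to 4.32 on cKO arrays and 4.29 to 4.44 on WT arrays. These nonspecific controls themselves differed between the groups by -0.31 to 0.08 (cKO minus WT). The 18 controls that are added at hybridisation all read higher on cKO arrays, by 0.06 to 0.49. In 6 pairs of consecutive arrays, the deviations from the group mean mirror each other, with correlations of -0.95 to -0.88. Each difference was therefore fitted without and with a term for these neighbouring pairs. A probe set is said to be called where its limma p, adjusted over all 45037 probe sets, was under 0.05. With the term, the difference between the groups lies between pairs but is set against the spread within pairs. That fit therefore does not remove the effect of the mirroring, and a call in both fits only describes 2 ways of fitting.

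Kit was higher in cKO tumours by 0.35 on the log2 scale, and with Ms4a2 (a) and Hdc (b) it was called in both fits. The other differences among the 14 probe sets were between -0.11 and 0.16. In the fit without the pair term 7 of 14 were called, or 50% of them, 6 higher in cKO tumours (Kit, Cpa3, Mcpt4, Tpsab1, Ms4a2 (a) and Hdc (b)) and 1 lower (Tpsb2 (a)). Over all probe sets 47.9% were called, 24.4% higher and 23.4% lower, so a count of 7 is close to the background. With the pair term 3 of 14 were called, or 21.4%, all higher, against 27% of all probe sets (13.9% higher and 13.1% lower). The split of higher and lower calls depended on the scaling, with 6 and 2 after median centring and 5 and 3 after quantile normalization of the deposited values (24.5% and 22% of all probe sets), against 6 and 1 as deposited. The median difference was 0.03 for the mast cell probe sets and 0.0004 for all probe sets, and the median size of the difference was 0.11 for the mast cell probe sets and 0.15 for all. None of the 14 differed by 2-fold or more. Only 714 of 45037 probe sets did, so the absence of such a change among 14 says little about the mast cell genes.

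**Figure D1:**
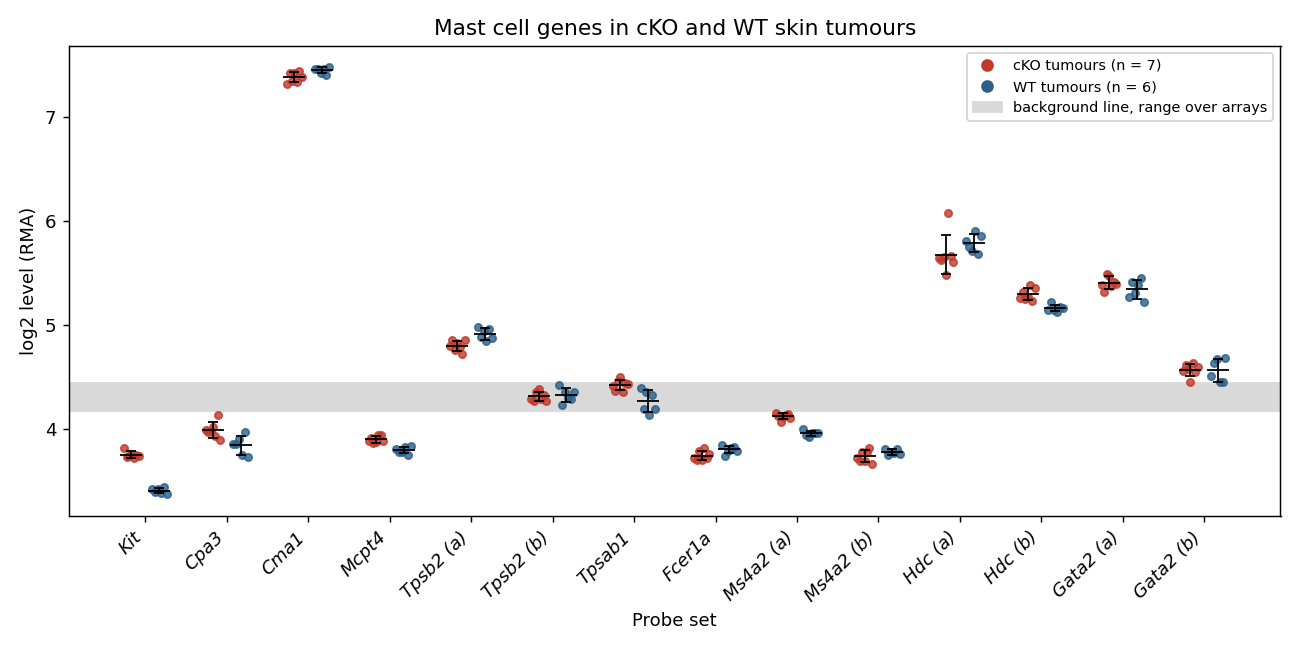
Log2 level (RMA) of each of the 14 mast cell probe sets on each array, cKO tumours (red, n = 7) left of WT tumours (blue, n = 6), with bars at the mean ± SD and a grey band for the range of the background line over arrays; levels of different probe sets are not comparable. Kit, Cpa3, Mcpt4, Fcer1a and both Ms4a2 probe sets lie below their arrays' line throughout, and Kit has the widest gap between the groups.

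The position relative to background differed among the members. The 6 probe sets of Kit, Cpa3, Mcpt4, Fcer1a and Ms4a2 lay below the line on all 13 arrays, as 20.7% of all probe sets did, and 4 of these 6 were called, against 45% of all probe sets that dim. The 6 probe sets of Cma1, Hdc, Gata2 and Tpsb2 (a) lay above it on all 13 arrays, with 2 called. Tpsab1 and Tpsb2 (b) lay across the line. A probe set below the line shows no absence of the transcript: Ptprc, which every leukocyte uses, lay below it on all 13 arrays (3.46 in cKO and 3.47 in WT tumours), while Cd53, another leukocyte gene that was picked after its values were seen, read 7.39 in cKO and 4.44 in WT tumours. No fold change is given for probe sets below the line in both groups.

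For the 3 genes with a probe set called in both fits, Kit, Ms4a2 and Hdc, the 250 bases before the transcription start are printed. They allow the DNA upstream of these genes to be compared with the values. The other probe sets, Ms4a2 (b) and Hdc (a), had the opposite sign and were called in neither fit. The sequences are those of RefSeq on GRCm38.p6, whose promoter table matched 8 of the 10 genes with 10 start sites. Capitals mark a GATA motif on either strand, that is, GATA with A or T before it and A or G after it, the letters that Gata2 and its relatives are known to bind. Kit has a second start site a few bases further on, for which no sequence is printed.
Kit, chr5:75574737-75574986, plus strand: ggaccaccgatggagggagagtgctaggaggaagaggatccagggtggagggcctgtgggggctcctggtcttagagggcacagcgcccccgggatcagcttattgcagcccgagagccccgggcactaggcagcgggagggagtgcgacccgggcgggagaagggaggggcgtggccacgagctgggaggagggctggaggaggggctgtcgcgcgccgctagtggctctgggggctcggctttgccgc
Ms4a2, chr19:11623720-11623969, minus strand: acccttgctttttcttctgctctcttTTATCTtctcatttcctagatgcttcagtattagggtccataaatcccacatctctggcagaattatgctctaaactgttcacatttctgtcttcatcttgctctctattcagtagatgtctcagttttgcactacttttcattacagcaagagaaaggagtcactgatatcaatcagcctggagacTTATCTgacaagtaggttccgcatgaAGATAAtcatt
Hdc, chr2:126618679-126618928, minus strand: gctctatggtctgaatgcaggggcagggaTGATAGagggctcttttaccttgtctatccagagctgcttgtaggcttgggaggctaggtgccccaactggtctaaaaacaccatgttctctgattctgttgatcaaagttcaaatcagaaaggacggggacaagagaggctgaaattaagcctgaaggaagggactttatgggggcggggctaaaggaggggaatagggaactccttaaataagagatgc
The window of Ms4a2 held 3 motifs, which start 224, 37 and 11 bases before the start of transcription, and 1.35% of the 32851 windows in the table held 3 or more. The window of Hdc held 1, at 221 bases, and neither window of Kit held one. Among the other members, Cpa3 had 1 motif at 46 bases, Cma1 at 79, Fcer1a at 92 and Mcpt4 at 103, and neither window of Gata2 had one. In all, 6 of the 8 genes had a motif in such a window, or 6 of their 10 windows, while 26.5% of all windows did. The windows of Kit and Gata2 were also the ones rich in CpG, with 17 and 18 CpG for Kit and 22 and 24 for Gata2, and 27.3% of all windows held 15 or more. Ms4a2 had 1 CpG, Fcer1a 0, Cma1, Mcpt4 and Hdc 2 each and Cpa3 3, a range of at most 3 that 37.8% of all windows shared. These matches describe letters in a window and do not show a bound site. Members with and without a motif occur among the genes with a probe set called in both fits.

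Kit, the receptor for stem cell factor on mast cells and melanocytes, is read by 1452514_PM_a_at. It read 3.72 at the lowest, 3.74 at the median and 3.82 at the highest on the 7 cKO arrays, and 3.37, 3.41 and 3.44 on the 6 WT arrays. The groups did not overlap, and every cKO array was higher than every WT array. The means were 3.75 ± 0.03 in cKO and 3.40 ± 0.03 in WT tumours (SD, n = 7 and 6), a difference of 0.35 (SE 0.02), with a limma adjusted p of 4.17e-07 without and 0.00098 with the pair term. Non-overlap of this kind was found for 4 of the 14 probe sets, the others being Mcpt4, Ms4a2 (a) and Hdc (b), and for 24.2% of all probe sets.

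All 13 Kit values lay below the line, and all 6 WT values were even below the median of the nonspecific controls (3.57 to 3.59 on WT arrays), while 0 of 7 cKO values were below theirs (3.61 to 3.63). Of all probe sets below the line on every array, 136 of 9328, or 1.46%, differed by at least as much as Kit in either direction, against 19.6% of all probe sets. A probe set that crosses the line on any array is left out of the dim set, which limits large differences by its definition. Kit also had the largest difference among the mast cell probe sets. The share of 1.46% therefore cannot show whether Kit stands out. The Kit difference lay inside the range of the hybridisation controls, and its relation to them was not tested. After quantile normalization it was 0.31 (limma adjusted p = 8e-07). Kit kept its call and its direction under each of the 22 alternatives in which it was fitted.

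**Figure D2:**
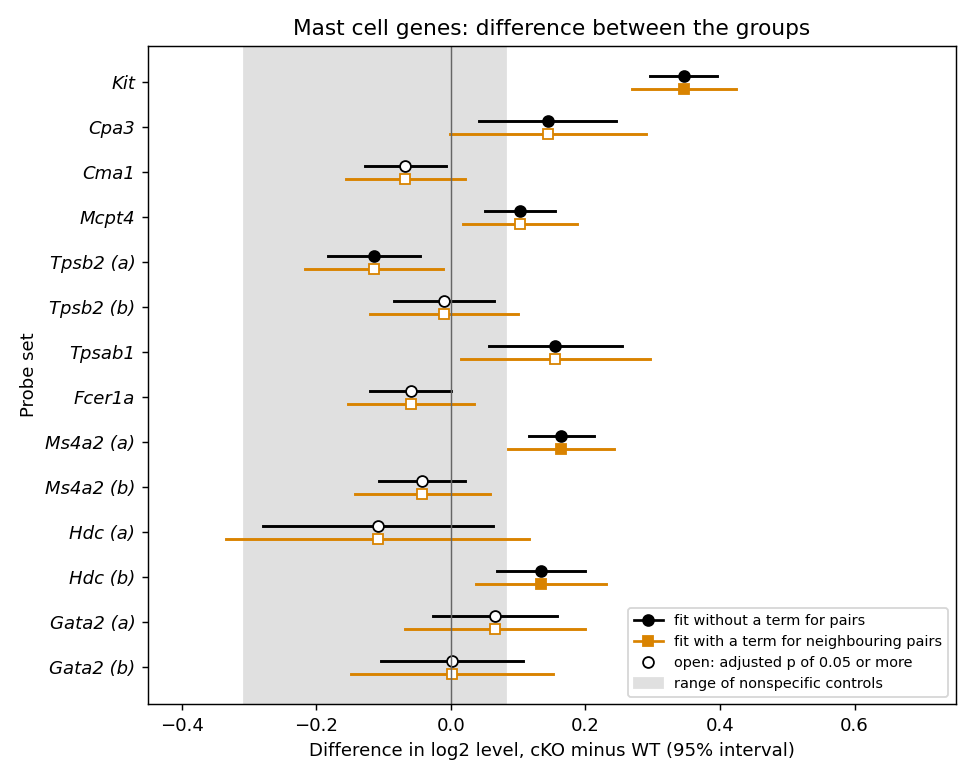
Difference in log2 level (cKO minus WT) of each mast cell probe set with its 95% interval, from the limma fit without (black circles) and with (orange squares) the term for neighbouring pairs; filled symbols have an adjusted p under 0.05 and the grey band is the range of the nonspecific controls. Kit stands at 0.35, 3 symbols are filled in the orange fit, and 8 of the 14 differences lie inside the band.

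The ligand of Kit moved the other way. Kitl was called lower in cKO tumours in both fits by each of its 4 probe sets, and it is named here as the ligand, after its values were seen. By 1415854_PM_at it read 7.23, 7.47 and 7.96 (lowest, median, highest) in cKO and 7.88, 8.22 and 8.73 in WT tumours, a difference of -0.72 (limma adjusted p = 0.00257, and 0.0273 with the pair term). The groups overlapped by this probe set only in the highest cKO and the lowest WT arrays, and they did not overlap by the other 3. Those differed by -0.65, -0.72 and -1.50, and the last read 4.10 to 4.88 in cKO and 5.62 to 6.50 in WT tumours. Stem cell factor is made by keratinocytes, fibroblasts and endothelium, and the arrays do not show in which cells its transcript differed.

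Among the granule proteases, the differences were small and of both signs. Cpa3, mast cell carboxypeptidase, read 3.89, 3.98 and 4.14 (lowest, median, highest) in cKO and 3.73, 3.85 and 3.97 in WT tumours. The groups overlapped, the means were 3.99 ± 0.08 and 3.84 ± 0.09, and the difference of 0.14 had a limma adjusted p of 0.0225, or 0.125 with the pair term. It was not called after quantile normalization (0.12, limma adjusted p = 0.0523), without WT replicate 7 (0.0515) or without WT replicate 9 (0.0505).

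Cma1, the mouse chymase closest by sequence to human mast cell chymase, was the protease whose probe set lay well above its arrays' background lines. It read 7.32, 7.38 and 7.45 in cKO and 7.41, 7.47 and 7.48 in WT tumours. The ranges overlapped, and the difference of -0.07 (SE 0.03) was not called (limma adjusted p = 0.0617). Its 95% interval in that fit ran from -0.13 to -0.01, and its call and sign depended on the processing. It was called lower after median centring (-0.08, limma adjusted p = 0.0359) and with array weights (-0.12, 0.00421), and its sign turned to 0.06 after quantile normalization (0.192). Both groups were narrow, with SDs of 0.05 in cKO and 0.03 in WT tumours.

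Mcpt4, the main chymase of connective tissue mast cells in the mouse, read 3.87, 3.89 and 3.94 in cKO and 3.75, 3.79 and 3.83 in WT tumours. Every cKO array was above every WT array, all below the line, and the difference of 0.10 had a limma adjusted p of 0.00357, or 0.0737 with the pair term.

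Tpsb2 and Tpsab1 encode the related tryptases Mcpt6 and Mcpt7. Tpsb2 (a), 1451802_PM_at, read 4.72, 4.79 and 4.85 in cKO and 4.84, 4.91 and 4.98 in WT tumours, overlapping only at the edge of the groups. Its difference of -0.11, or 1.08-fold higher in WT, had a limma adjusted p of 0.00983, or 0.0941 with the pair term. With the mean over both probe sets of Tpsb2 it was -0.06 and not called (0.0756). Tpsb2 (b), 1422180_PM_a_at, averaged 4.31 ± 0.05 in cKO and 4.32 ± 0.07 in WT tumours, and its difference of -0.01 was not called (limma adjusted p = 0.823). Tpsab1 had the opposite sign to Tpsb2 (a): it read 4.35, 4.43 and 4.49 in cKO and 4.13, 4.26 and 4.40 in WT tumours. The groups overlapped, 3 of 6 WT values and 0 of 7 cKO values lay below their line, and the difference of 0.16 had a limma adjusted p of 0.013, or 0.094 with the pair term. RefSeq lists Tpsab1 on GRCm38.p6 as a transcribed pseudogene, as it is known to be in some laboratory strains.

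The chains of the IgE receptor did not move together. Ms4a2 (a), 1421475_PM_at, for the β chain that amplifies the signal, read 4.07, 4.13 and 4.15 in cKO and 3.93, 3.96 and 4.00 in WT tumours. The groups did not overlap, and the difference of 0.16 (SE 0.02) had a limma adjusted p of 7.82e-05, or 0.0123 with the pair term. Ms4a2 (b), 1443264_PM_at, had the opposite sign: it averaged 3.73 ± 0.06 in cKO and 3.78 ± 0.02 in WT tumours, a difference of -0.04 that was not called (limma adjusted p = 0.256). The mean over both probe sets of Ms4a2 differed by 0.06 (limma adjusted p = 0.0401). Fcer1a, for the α chain that binds IgE, read 3.70, 3.72 and 3.82 in cKO and 3.74, 3.80 and 3.84 in WT tumours, with overlap and a difference of -0.06 that was not called (limma adjusted p = 0.0965). After quantile normalization Fcer1a was called lower (-0.09, adjusted p = 0.0156), and so was Ms4a2 (b) (-0.07, adjusted p = 0.0482). All 3 of these probe sets lay below the line on every array. Fcer1g, for the γ chain that mast cells share with other myeloid cells, was higher by 0.30 (limma adjusted p = 0.0277) but was not called with the pair term (0.0985), and it is named for its place in the receptor, after its values were seen.

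Hdc, histidine decarboxylase, gave opposite signs by its probe sets, both of a type that can read related transcripts. Hdc (b), 1451796_PM_s_at, read 5.23, 5.27 and 5.38 in cKO and 5.13, 5.15 and 5.22 in WT tumours. The groups did not overlap, the means were 5.29 ± 0.06 and 5.16 ± 0.03, and the difference of 0.13, or 1.10-fold, had a limma adjusted p of 0.00286, or 0.0472 with the pair term. Hdc (a), 1454713_PM_s_at, read 5.48, 5.65 and 6.07 in cKO and 5.69, 5.77 and 5.91 in WT tumours.

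The highest value of Hdc (a) was cKO replicate 6, and the other 6 cKO arrays were below the lowest WT array. With all arrays the difference of -0.11 was not called (limma adjusted p = 0.277), and without cKO replicate 6 it was -0.17 and was called (0.00826). The direction of Hdc therefore rests on the probe set.

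Gata2, a transcription factor of mast cells and blood progenitors, was not called by either probe set. Gata2 (a), 1428816_PM_a_at, averaged 5.41 ± 0.06 in cKO and 5.34 ± 0.09 in WT tumours, a difference of 0.07 (limma adjusted p = 0.22). Gata2 (b), 1450333_PM_a_at, averaged 4.57 ± 0.06 in cKO and 4.56 ± 0.11 in WT tumours, and its sign changed with the scaling (0.002 as deposited, -0.01 after median centring and -0.02 after quantile normalization). The 95% intervals of the differences reached from -0.03 to 0.16 for (a) and from -0.10 to 0.11 for (b).

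**Figure D3:**
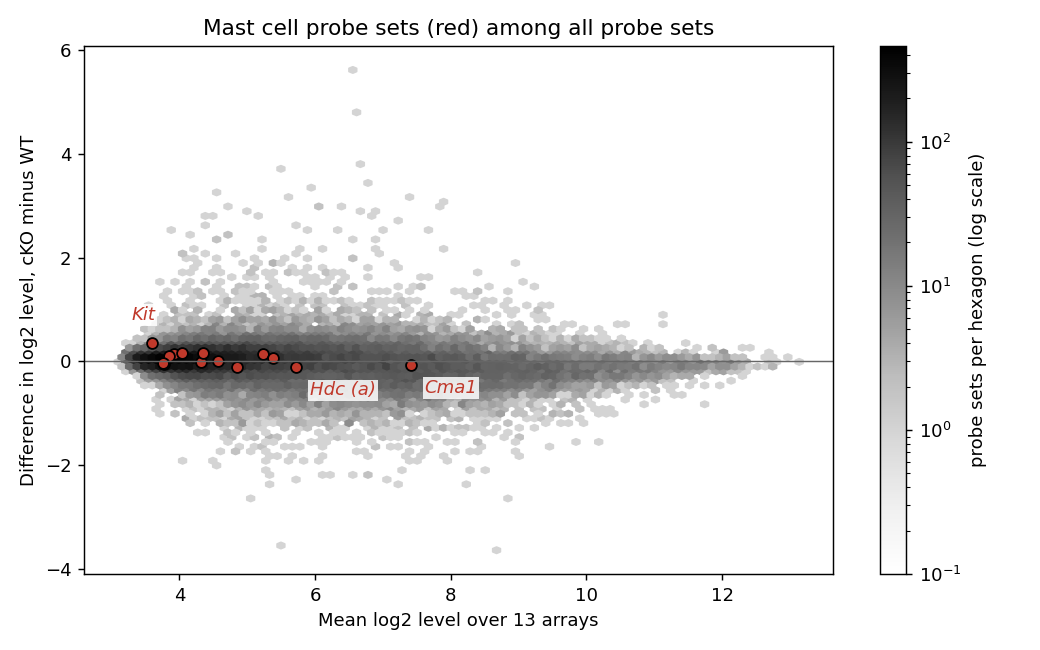
Difference in log2 level (cKO minus WT) against the mean log2 level over 13 arrays for all probe sets (grey hexagons, darker with more probe sets on a log scale) and for the 14 mast cell probe sets (red). Kit is at the dim end with a difference of 0.35, and the other red points lie between -0.11 and 0.16.

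Within the groups, correlations among the mast cell genes were low and of both signs. Pearson's r between the probe sets of highest mean of each pair of member genes, over 13 arrays with the group means removed, had a median of 0.05 over 45 pairs, and 23 of the 45 were above 0. The pair of highest r was Mcpt4 with Hdc (0.69), and that of lowest r was Mcpt4 with Gata2 (-0.65). Over the 21 pairs of the 7 genes Cpa3, Cma1, Mcpt4, Tpsb2, Tpsab1, Fcer1a and Ms4a2 the median was 0.09. The same measure gave a median of 0.77 over 91 pairs of endothelial markers, 0.33 for fibroblast markers, 0.33 for pan-leukocyte genes and 0.24 for keratinocyte markers. These values are descriptions, since mirrored arrays are not independent points. Of the 10 mast cell genes 5 lay below the background line on every array, where little co-variation can be read, and 0 of the 14 endothelial markers did, so the medians cannot be set against each other as a difference in co-variation.

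The spread behind them was small. SDs within the groups lay between 0.03 and 0.19 in cKO and between 0.02 and 0.11 in WT tumours for the mast cell probe sets, and the median SD of all probe sets was 0.09 in cKO and 0.12 in WT tumours. With the mean z-score of the 7 genes as a profile, each of the 7 correlated with it by 0.24 (Fcer1a) to 0.66 (Ms4a2). The genes outside the list with the most similar pattern, out of 15400, were Mx2 (r = 0.91), Gpr174 (0.88), Neurog2 (0.88), Tacr2 (0.88), Bcl2l2 (0.87) and Fut4-ps1 (0.87). Of these, Tacr2 and Fut4-ps1 were called between the groups in both fits, with differences of -0.19 and 0.24. Gpr174 and Tacr2 lay below the background line on all 13 arrays and Neurog2 on 12. The genes were picked as the highest of 15400 over mirrored arrays, and whether their r exceeds what such picking gives was not tested.

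**Figure D4:**
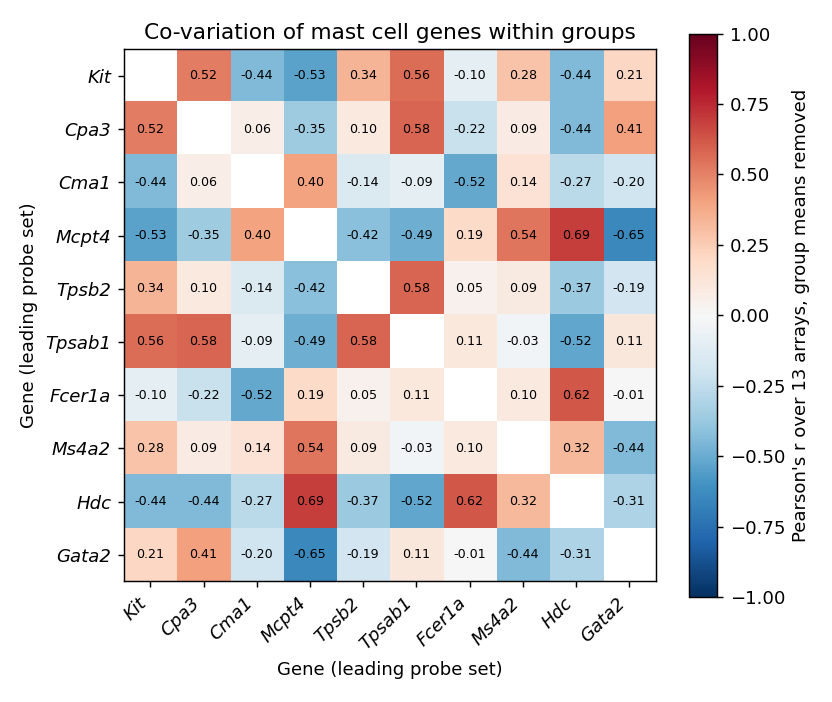
Pearson's r between the 10 mast cell genes, each read by the probe set of highest mean, over 13 arrays after each group's mean was removed; red is positive and blue negative. Positive and negative values are mixed, from -0.65 (Mcpt4 and Gata2) to 0.69 (Mcpt4 and Hdc).

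Other genes of the mast cell pathway were read from 6 lists by the probe set of highest mean per gene. Of 88 listed genes 75 were measured, and 25 were called higher and 12 lower, where 46.5% of all genes read in this way were called, 26.1% higher and 20.4% lower. The other granule and protease genes had 3 higher and 2 lower of 10 measured (3 and 1 with the pair term, 3 and 1 after quantile normalization) and a median difference of 0.03. Srgn, for serglycin, the proteoglycan core that packs proteases in the granules of mast cells and other leukocytes, was 2.42-fold higher, at 6.34 ± 0.41 in cKO and 5.07 ± 0.40 in WT tumours (log2, SD, n = 7 and 6, limma adjusted p = 0.000352). Its lowest cKO array (5.93) was above its highest WT array (5.57). The chymase gene Mcpt2, a product of mucosal mast cells, was higher by 0.19 below the line on every array, the transmembrane tryptase gene Tpsg1 was higher by 0.16, and the lysosomal protease gene Ctsd was lower by 0.25 in log2 units, at levels of 10.2 in cKO and 10.5 in WT tumours. All 4 were called in both fits, and the difference of Ctsd was -0.11 after quantile normalization, against -0.25 as deposited.

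In the list of growth factors, cytokines and other receptors 3 genes were higher and 4 lower of 14 measured (2 and 3 with the pair term), with a median difference of -0.002. Crlf2, a chain of the receptor for the cytokine TSLP, read 6.11, 6.22 and 6.41 in cKO and 7.29, 7.42 and 7.73 in WT tumours. The groups stood well apart, and Crlf2 was 2.35-fold higher in WT (difference -1.23, limma adjusted p = 2e-07, and 0.00047 with the pair term). Ptger3, a receptor for prostaglandin E2, was higher by 0.48, with all 6 WT arrays below the line, and its other probe set differed by 0.04 and was not called. The mast cell growth factor gene Il9 was higher by 0.13 and the gene of its receptor, Il9r, lower by 0.12. Both were called in both fits, with Il9 below the line on 5 of 6 WT arrays and Il9r on every array.

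Genes of IgE receptor signalling and degranulation had 6 higher and 3 lower of 21 measured (5 and 1 with the pair term) and a median of 0.07. Rab27a, a small GTPase that brings granules to the cell surface, read 5.25, 5.39 and 5.58 in cKO and 4.16, 4.40 and 4.60 in WT tumours. Every cKO array was above every WT array. The difference of 1.02 had a limma adjusted p of 1.1e-06, or 0.000782 with the pair term. All 4 probe sets of Rab27a were called higher in both fits, by 0.13 to 1.02. The one with 1.02 lay below the line on 3 of 6 WT arrays and the one with 0.13 on all 13 arrays. The others lay below it on 6 and 7 arrays. The adaptor genes Gab2 and Lcp2 were higher by 0.59 and 0.40 and the lipid phosphatase gene Inpp5d, a brake on FcεRI signalling, by 0.39, all called in both fits. A second probe set of Lcp2, at 3.58 in cKO and 3.63 in WT tumours, was not called. These signalling genes also serve other leukocytes, and Rab27a serves melanocytes. The 3 genes called lower, named after their values were seen, were Rab27b (-0.87), Plcg1 (-0.48) and Unc13d (-0.25). By these probe sets Unc13d alone was called with the pair term. Another probe set of Rab27b differed by -0.62, called lower in both fits, and another by 0.05, not called. The other probe set of Plcg1 differed by 0.14, called higher without the pair term only.

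The transcription factor list had 4 higher and 1 lower of 12 (4 and 0 with the pair term, and 4 and 0 after quantile normalization) with a median of 0.13. Ikzf1, Lyl1, Zfpm1 and Tal1, regulators of blood cell lineages, were higher by 0.29, 0.33, 0.24 and 0.19 and were called in both fits. Ikzf1 had another probe set with a difference of -0.15, called lower without the pair term only, and Tal1 on every array and Lyl1 on 2 cKO and all 6 WT arrays lay below the line. Among genes of histamine transport, breakdown and receptors 4 were higher and 1 lower of 7 (2 and 0 with the pair term), with a median of 0.16. Hnmt, which methylates histamine, was higher by 0.27 with every array below the line. The histamine receptor genes Hrh1 and Hrh2 were higher by 0.28 and 0.16 and Hrh4 was lower by 0.09, with Hrh1 alone of these called with the pair term. That probe set of Hrh1 lay below the line on 5 of 6 WT arrays, and its other probe set differed by 0.04 and was not called.

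Genes of leukotriene and prostaglandin D2 synthesis and sensing had 5 higher and 1 lower of 11 (3 and 1 with the pair term) and a median of 0.08. Ptgs2, the inducible cyclooxygenase, read 8.42, 8.90 and 9.08 in cKO and 9.71, 10.1 and 10.4 in WT tumours. The lowest WT array was above the highest cKO array, and the level was 2.37-fold higher in WT (difference -1.25, limma adjusted p = 1.82e-05), with a difference of -0.54 by its other probe set. Ptgdr, a receptor for prostaglandin D2, was 1.62-fold higher in cKO (difference 0.70), and the leukotriene synthesis genes Alox5ap and Alox5 were higher by 0.26 and 0.16. These 4 genes were called in both fits, Alox5ap with all 6 WT arrays below the line.

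**Figure D5:**
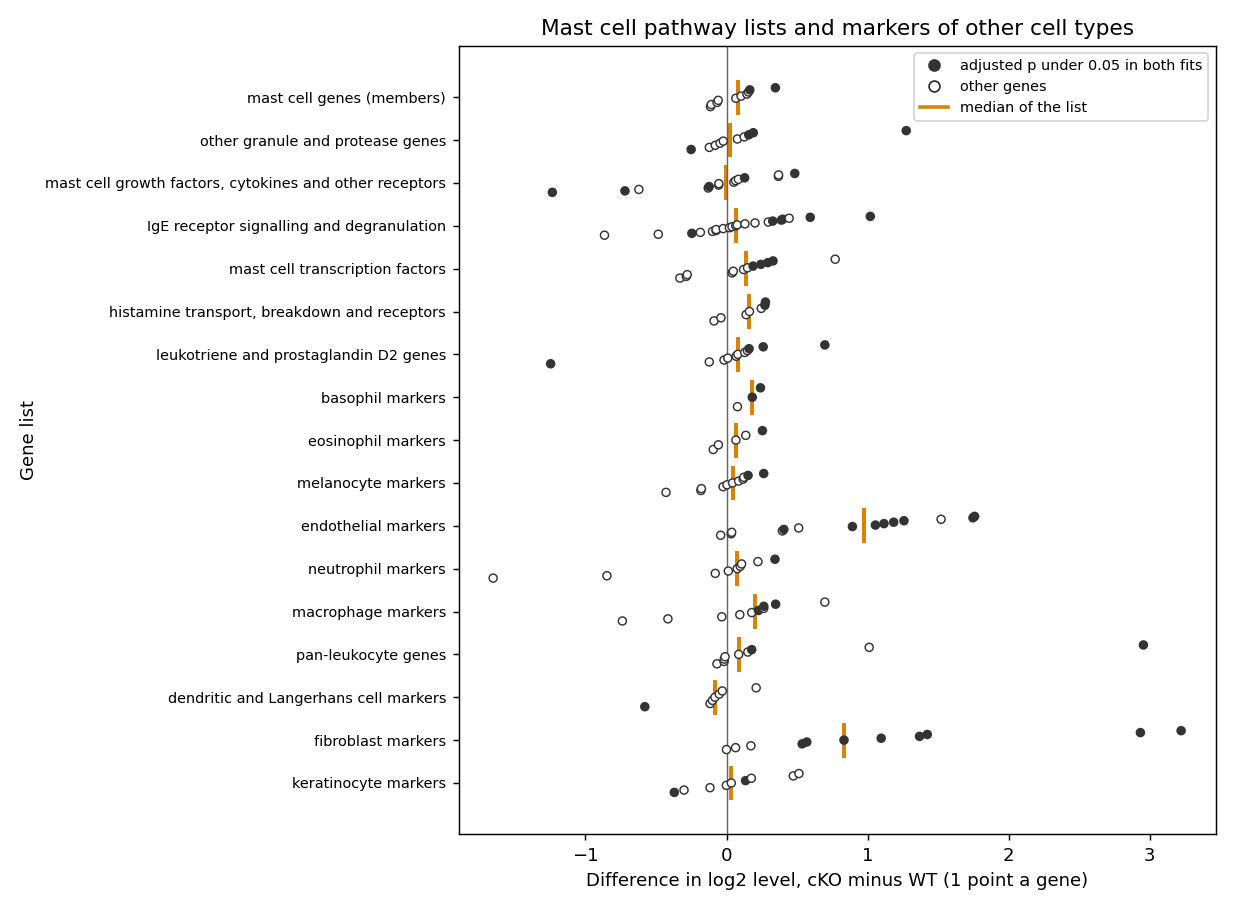
Difference in log2 level (cKO minus WT) of each measured gene of the mast cell lists and of the lists of other cell types, 1 point a gene by its probe set of highest mean, with an orange bar at the list's median; filled points have a limma adjusted p under 0.05 in both fits. The medians of the mast cell lists lie between -0.002 and 0.16, and those of the endothelial and fibroblast markers are 0.97 and 0.83.

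Markers of other cell types were read in the same way, where 46.5% of all genes were called, 26.1% higher and 20.4% lower. With the pair term 27% of all probe sets were called, 13.9% higher and 13.1% lower. The part of these cell types in the values above was not tested. Of 14 endothelial markers 10 were called higher and 0 lower (8 and 0 with the pair term), and their mean log2 level was 5.66 to 6.06 on cKO arrays and 4.53 to 5.61 on WT arrays. Fibroblast markers were higher in 8 of 11 in both fits, with mean levels of 6.16 to 6.60 in cKO and 5.01 to 5.63 in WT tumours, although Col1a2 and Pdgfra lay below the line on every array. Pan-leukocyte genes were higher in 2 of 9 in both fits, with a median difference of 0.09. Their mean levels of 5.50 to 6.16 in cKO and 5.15 to 5.43 in WT tumours gave a mean difference of 0.47, in which Cd53 (2.95) and Lcp1 (1.01, not called) weighed most. By the probe set of highest mean, Ptprc (-0.01), Coro1a (-0.02) and Rac2 (-0.02) were near 0. The other probe sets of Coro1a were called higher in both fits, by 0.30 and 0.43. That of Rac2 differed by -0.10 and was not called. Keratinocyte markers had 1 higher and 2 lower of 9 (1 and 1 with the pair term, 3 and 1 after quantile normalization), at 9.52 to 10.3 in cKO and 9.60 to 10.1 in WT tumours.

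The cell types that share genes with mast cells gave small differences. Of 3 basophil markers 2 were called higher in both fits, Mcpt8 by 0.24 and Cd200r3 by 0.18. The other probe set of Cd200r3 differed by -0.03 and was not called, and Cd200r3 and Il4 lay below the line on every array. The mean levels of the 3 markers, 4.16 to 4.30 in cKO and 4.04 to 4.09 in WT tumours, did not overlap. Among all single probe sets 24.2% did not overlap, and no such share was computed for means of 3 genes. Eosinophil markers had 2 higher and 0 lower of 5 (1 and 0 with the pair term, 2 and 1 after quantile normalization), Il5ra by 0.25 and Prg2 by 0.14, at mean levels of 4.19 to 4.28 in cKO and 4.13 to 4.22 in WT tumours, with Prg2 and Siglecf below the line throughout. Melanocyte markers, which bear on Kit, had 4 higher and 2 lower of 11 (2 and 0 with the pair term). Mlana and Mc1r were called higher in both fits, by 0.26 and 0.15, and the other probe set of Mc1r differed by -0.06 and was not called. By its probe set of highest mean, Sox10 was called higher by 0.12 without the pair term only. The other probe sets of Sox10 differed by 0.27, called higher in both fits, and by -0.04, not called. Dct (difference -0.18) and Pmel (-0.43, the largest in the list and named after its values were seen) were called lower, without the pair term only. Tyrp1 lay below the line on every array, and the mean levels overlapped at 4.67 to 4.77 in cKO and 4.61 to 4.81 in WT tumours.

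Macrophage markers had 4 higher and 2 lower of 10 (3 and 0 with the pair term) at mean levels of 4.70 to 5.05 in cKO and 4.67 to 4.80 in WT tumours. Neutrophil markers had 4 higher and 1 lower of 9 (1 and 0 with the pair term) at 5.08 to 5.51 in cKO and 5.07 to 5.98 in WT tumours. Markers of dendritic and Langerhans cells had 0 higher and 3 lower of 7 (0 and 1 with the pair term) at 4.75 to 4.84 in cKO and 4.84 to 4.93 in WT tumours.

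Genes that neighbour the members on the chromosome were read as well, the nearest 2 measured protein-coding genes on each side. Of 35 such genes that are no members 20 were called, or 57.1%, against 46.5% of all genes read by 1 probe set. With the pair term 13 of the 35 were called. That term called 27% of all probe sets, a share over probe sets and not over genes. Next to Ms4a2, its relatives Ms4a6d, Ms4a4d and Ms4a3 were higher by 0.90, 0.41 and 0.20, all called in both fits. Beside Kit, Gsx2 was called higher by 0.19 in both fits, below the line on every array, while Pdgfra (-0.0007), Kdr (0.04) and Srd5a3 (-0.04) were not called. In the chymase cluster around Cma1 and Mcpt4, Mcpt2 and Mcpt8 were higher in both fits, Mcpt9 was lower by 0.12 without the pair term only, and Mcpt1 (-0.08) and Ctsg (0.08) were not called. The neighbours are named here by position, after their values were seen.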

How the data were processed

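Total RNA was extracted with TRIzol, 25 ng was amplified with 17 cycles and 8 µg of biotin-labelled cDNA was hybridised, per the labels' protocols. The deposited values are log2 levels per probe set made with RMA, per the submitters' processing notes, and no version or later adjustment is given in the sources used here. No scanner files were used here. Array medians lay between 5.09 and 5.14, SDs over all probe sets were 1.82 to 1.87 on cKO and 1.90 to 1.93 on WT arrays, and correlations between arrays were 0.968 to 0.996. The number of arrays limits the precision.

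Groups came from the sample titles. All 45037 probe sets other than controls entered 1 fit of cKO minus WT without covariates or a filter on dim probe sets (limma 3.58.1 under R 4.3.3, functions lmFit and eBayes). Tests were two-sided, and p-values were adjusted by Benjamini-Hochberg against a threshold of 0.05. A second fit had a term for each of the 6 neighbouring pairs of mirrored arrays, with cKO replicate 1 in no pair. Its error is the spread within pairs, while the groups differ between pairs, so it does not correct for the mirroring. Because of the mirroring, the spread behind each p is not that between separate tumours. The fit was tested on simulated data with known changes. The simulated arrays were not mirrored, so that test cannot show the error rate of the fit on the deposited values. The 4 replicate numbers found in both groups did not pair the arrays (correlations of deviations -0.28 to 0.05).

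The members and lists were chosen with earlier results of these data known. Named genes are all members, up to 4 called genes of each other list by smallest p, markers at background, Ehmt2, and the 6 genes most like the mast cell profile. Outside this rule Kitl, Fcer1g, Rab27b, Plcg1, Unc13d, Cd53, Lcp1, Coro1a, Rac2, Pmel and the chromosomal neighbours were named after their values were seen. Gene symbols come from the platform annotation, and positions and promoter sequences from RefSeq (GRCm38.p6). Motifs were counted with Python 3.11.15, and figures were drawn with matplotlib 3.10.9. The alternatives were other scalings, a filter, 1 value per gene, other priors and weights, a block, the pair term, a stricter threshold and each array left out. The combination of the pair term with quantile normalization was chosen after seeing the data.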

Additional observations from a re-analysis of the deposited data

Results flagged for a closer look

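In 2 of 28 sets of group values for the mast cell probe sets, 1 array lay far from the rest of its group, by the size of its gap relative to the range, and chance gives about 1 in 20. For Kit (1452514_PM_a_at), cKO replicate 1 read 3.82, and the other 6 cKO arrays read 3.72 to 3.75. This array is the one in no mirrored pair, and without it Kit kept its call. For Hdc (1454713_PM_s_at), cKO replicate 6 read 6.07, and the other 6 cKO arrays read 5.48 to 5.66. Without it the difference was -0.17 (limma adjusted p = 0.00826), against -0.11 (0.277) with it.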

How the results depend on the processing

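Of the 14 mast cell probe sets 7 were called as deposited. The count was 3 without probe sets below the 25th percentile of mean level, where 15755 of all probe sets left were called. That filter removes Kit, Cpa3, Mcpt4, Fcer1a and both Ms4a2 probe sets, and Tpsb2 (a), Tpsab1 and Hdc (b) kept their calls. The count was 3 with the neighbouring-pair term, 2 with that term after quantile normalization, 1 with the replicate number as a block, and 6 to 9 with each array left out. Over all probe sets the count of 21565 became 12169 with the pair term, 11295 with it after quantile normalization and 8955 with the replicate block, and 19362 to 20914 with each array left out. It was 7830 with 1 probe set a gene and 7884 with the mean over a gene's probe sets, where fewer features were tested. The cause of the other changes was not tested. Array weights made calls of Cma1 and of Fcer1a (-0.08, adjusted p = 0.0103). The replicate numbers pair nothing in the labels, and with the block Ms4a2 (a) had an adjusted p of 0.0522 and Hdc (b) of 0.0736, and Tpsab1 differed by 0.08 (0.401). Hdc (b) had 0.0632 with the pair term after quantile normalization. With the pair term the called genes were 2 for histamine genes, 1 for eosinophil markers, 2 for melanocyte markers, 1 for neutrophil markers, 3 for macrophage markers and 1 for dendritic and Langerhans cell markers. Signs turned for Cma1 (0.057 after quantile normalization, without and with the pair term), for Hdc by the mean over its probe sets (0.013), for Tpsb2 (b) without WT replicate 2 (0.0089, in a range of -0.030 to 0.0089 with each array left out) and for Gata2 (b). Gata2 (b) differed by -0.013 after median centring, -0.021 after quantile normalization without and with the pair term, -0.019 with array weights (whose estimation stopped before it converged), and -0.022 to 0.026 with each array left out. Leaving out an array ended 1 call, Cpa3 (without WT replicate 7 or 9), and made calls of Cma1 without WT replicate 8 (adjusted p = 0.0475) or cKO replicate 8 (0.0366), of Fcer1a without cKO replicate 6 (0.0465) and of Hdc (a) without cKO replicate 6. Levels below the background line limit Kit, Cpa3, Mcpt4, Fcer1a and Ms4a2, for which no fold change can be given.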
